A study of Mus musculus with 48 samples.

Results

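Carbonic anhydrases are the enzyme family that acetazolamide targets. The abundance of their own transcripts was followed here in mouse limb buds exposed to acetazolamide or to cadmium. The family was defined by symbol, as Car1, Car2, Car3, Car4, Car6, Car7, Car8, Car9, Car11 and Car14, and a gene counted as measured when a probe set of the array named it alone. This held for 7 of the 10 genes, with 8 probe sets, among 8252 genes measured in all. Car7, Car9 and Car11 were not analysed here, since no probe set named any of them alone. Car5a and Car12 also belong to the family and are given at the end of the account of the members.

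The study exposed pregnant mice by intraperitoneal injection on gestation day 9.5. The groups were acetazolamide at 400 mg/kg in vegetable oil, cadmium sulfate at 4 mg/kg in phosphate-buffered saline (PBS), and the vehicle groups oil and PBS. Embryos were collected 3 h or 12 h after injection, and the right forelimb buds were split with trypsin into ectoderm, the epithelial cover, and mesoderm, the mesenchymal core. Each of the 16 groups had 3 arrays, which made 48. No strain is given in the labels. They state that tissue from several litters was pooled to obtain RNA, but also that the RNA extracts hybridised were not pooled, so the spread between arrays may leave out part of the spread between litters, and p-values measure only the spread between these RNA samples. In bulk tissue, fewer cells of a type and less RNA per cell cannot be told apart.

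The deposited values are ratios of each array to its vehicle, within a tissue and time, so they carry no expression level, and it is not known how far the signal of any carbonic anhydrase stood above background. Vehicle arrays 1 and 2 summed to 2 in every comparison, and vehicle array 3 was 1 everywhere, hence 0 on the log2 scale used below. The third vehicle array therefore carries no measured spread. Differences are log2 differences between the mean of 3 treated and the mean of 3 vehicle arrays, given with the standard error (SE) from a limma model over all 48 arrays. A gene was called at an adjusted p (Benjamini-Hochberg over the 8252 genes) under 0.05. The model compares treated and vehicle arrays within blocks of one vehicle denominator, arrays 1 and 2 together and array 3 apart, so leaving out array 3 of one group leaves array 3 of the other without a partner. The residual SD ran from 0.115 in cadmium mesoderm at 12 h to 0.223 in cadmium ectoderm at 12 h, and a gene's 95% interval reached a median of 0.215 and 0.418 to either side in the same comparisons.

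Carbonic anhydrases are zinc enzymes that interconvert carbon dioxide and bicarbonate, releasing or taking up a proton. They differ in location: Car1, Car2 and Car3 are cytosolic, Car4 is tethered to the outer cell surface, Car14 spans the membrane with its catalytic part outside, and Car6 is secreted. Car8 has lost catalytic activity. Acetazolamide is a sulfonamide that binds the zinc in the active site, so it acts on the protein, and a change in transcript is a separate question. How far it blocks each member was not measured here. Both agents are teratogens, and the title of the study says that they lead to a like phenotype.

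The RefSeq promoter table (build GRCm38.p6) held 5 of the 9 measured carbonic anhydrases: Car4, Car6, Car14, Car5a and Car12. The 250 bases before the transcript start that the table uses were searched on both strands for the core of the metal response element, TGCACNC or TGCGCNC, and for the core of the hypoxia response element, ACGTG. No metal match overlapped a hypoxia match in these promoters. Among 32851 promoters of this length, 21.4% held a metal core and 16.6% a hypoxia core. Car6 had 1 metal core and a palindromic hypoxia core that counts on both strands. Car14 had 0 metal cores and 1 hypoxia core close to the start used, and Car4, Car5a and Car12 had 0 of either. The sequences of Car14 and Car6 are shown as the only carbonic anhydrase promoters with a match, and that of the metallothionein gene Mt2, with 3 metal cores, as a metal-responsive gene measured on the same arrays. Capitals mark the matches, and each sequence runs 5′ to 3′ in the direction of the gene.
Car14 (chr3:95904686-95904935, minus strand): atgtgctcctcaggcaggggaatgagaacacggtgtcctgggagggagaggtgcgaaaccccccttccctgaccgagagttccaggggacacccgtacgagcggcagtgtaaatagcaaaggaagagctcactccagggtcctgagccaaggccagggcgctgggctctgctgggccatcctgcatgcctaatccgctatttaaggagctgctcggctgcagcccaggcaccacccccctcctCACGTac
Car6 (chr4:150201136-150201385, minus strand): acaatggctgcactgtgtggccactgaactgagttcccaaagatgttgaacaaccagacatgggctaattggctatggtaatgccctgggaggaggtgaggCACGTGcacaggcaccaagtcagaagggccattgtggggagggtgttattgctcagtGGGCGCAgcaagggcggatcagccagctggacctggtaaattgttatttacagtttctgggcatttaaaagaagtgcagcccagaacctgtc
Mt2 (chr8:94172368-94172617, plus strand): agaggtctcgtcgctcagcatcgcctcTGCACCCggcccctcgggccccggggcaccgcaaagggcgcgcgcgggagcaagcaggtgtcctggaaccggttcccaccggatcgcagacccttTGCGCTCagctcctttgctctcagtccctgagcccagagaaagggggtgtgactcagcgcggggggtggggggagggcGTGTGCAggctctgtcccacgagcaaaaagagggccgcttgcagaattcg
The windows of Car14 and Car12 lie inside the span of their genes in the RefSeq annotation, so they precede an internal transcript start and not the outermost one. A match is a run of letters and not a measured binding site.

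None of the 7 carbonic anhydrases passed the test in any of the 8 comparisons, which makes 0 of 56 differences. Of the 56, 25 were positive and 49 lay within 0.25 of 0. Without adjustment, 3 differences had a limma p under 0.05: Car3 in cadmium mesoderm at 12 h, Car14 in cadmium ectoderm at 12 h and Car1 in acetazolamide ectoderm at 12 h. Over all genes, 93 of 66016 differences rose and 102 fell at the adjusted threshold, and 3925 had an unadjusted limma p under 0.05. In 10 of the 56, the 3 treated arrays lay all above (5) or all below (5) the 3 vehicle arrays. For all genes, groups did not overlap in 5.91% to 19.3%, depending on the comparison. Adjusted p-values for the members ran down to 0.114, for Car3. The plot of differences by gene and comparison shows how they scatter around 0.

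**Figure D1:**
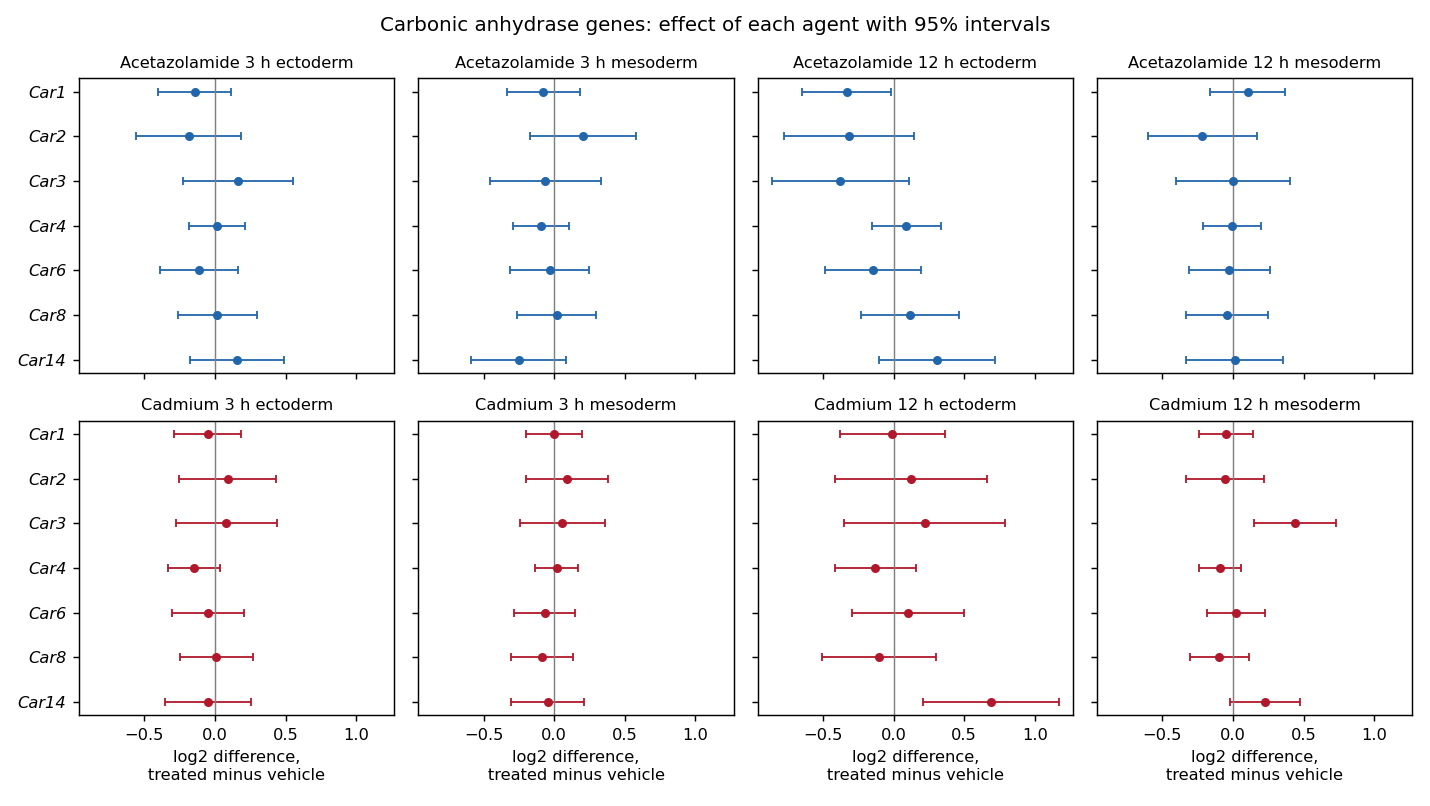
Log2 difference, treated minus vehicle, of the 7 carbonic anhydrases in each comparison, with 95% intervals from the limma model (3 treated and 3 vehicle arrays each). The intervals of Car1 in acetazolamide ectoderm at 12 h, Car14 in cadmium ectoderm at 12 h and Car3 in cadmium mesoderm at 12 h leave out 0, and 0 of the 56 differences passed the adjusted threshold.

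After acetazolamide, none of the 4 comparisons called a member. In ectoderm at 3 h, 0 of 7 members were called or reached an unadjusted p under 0.05, against 0.0242% and 6.86% of all genes, and 1 member, Car14, had groups that did not overlap, against 13.9% of all genes. In mesoderm at 3 h these counts were 0, 0 and 0, against 0.0364%, 7.36% and 15.9%. Ectoderm at 12 h had 0 members called, 1 at an unadjusted p under 0.05 (Car1) and 2 without overlap (Car8 above and Car3 below), against 0%, 7.86% and 16.8%. In mesoderm at 12 h, 0 were called, 0 reached an unadjusted p under 0.05 and 1 (Car2, below) did not overlap, against 0%, 0.788% and 5.91%.

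Cadmium likewise called no member. In ectoderm at 3 h, 0 members were called, 0 reached an unadjusted p under 0.05 and 1 (Car4, below) did not overlap, against 0%, 3.32% and 9.39% of all genes. Mesoderm at 3 h gave 0, 0 and 0 members, against 0%, 3.09% and 9.63%. Ectoderm at 12 h gave 0 called, 1 at an unadjusted p under 0.05 (Car14) and 2 without overlap (Car3 and Car14, both above), against 0.0242%, 4.45% and 10%. Mesoderm at 12 h, where 188 genes were called in all, gave 0 called, 1 at an unadjusted p under 0.05 (Car3) and 3 without overlap (Car3 above, Car4 and Car8 below), against 2.28%, 13.8% and 19.3%. With 7 members, these counts show nothing particular to the family.

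The median difference over the members ran from -0.14 (acetazolamide ectoderm, 12 h) to 0.10 (cadmium ectoderm, 12 h), and that over all genes from -0.04 to 0.03. The median size of the difference, without its sign, was 0.309 for the members in acetazolamide ectoderm at 12 h, against 0.148 for all genes. In acetazolamide mesoderm at 12 h it was 0.0259 for the members and 0.0664 for all genes. Elsewhere it ran from 0.0513 to 0.144 for the members and from 0.0654 to 0.138 for all genes.

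The cytosolic enzymes come first. Car1, a carbonic anhydrase of red blood cells, read -0.49, -0.40 and -0.21 in the 3 acetazolamide ectoderm arrays at 12 h, against 0.35, -0.46 and 0 in the oil arrays. The groups overlapped, because the second oil array was as low as the treated ones. The difference was -0.33 ± 0.15 (SE, n = 3 and 3; 95% interval -0.65 to -0.02), a fold of 0.795, with limma adjusted p = 0.628. It depended on the oil arrays: without oil array 1 the difference was -0.09, and without oil array 2 it was -0.54 with adjusted p = 0.0353, which passes the threshold. The ratios of oil arrays 1 and 2 sum to 2, so leaving out array 1 and leaving out array 2 move the difference in opposite directions. Either fit holds 1 oil array per denominator block, hence no spread between oil arrays within a block. The red blood cell markers (18 of 27 listed genes measured) had mean log2 ratios of -0.04, 0.12 and -0.48 in these treated arrays. In the oil arrays the means were 0.04, -0.09 and 0. Of the 18, 0 were called, against 0% of all genes in this comparison. The part of these markers in the Car1 value was not tested.

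In acetazolamide mesoderm at 12 h, Car1 read -0.05, 0.23 and 0.12, against 0.12, -0.13 and 0 in oil mesoderm. These groups overlapped too, and the difference was 0.11 ± 0.13 (SE). The mesoderm effect minus the ectoderm effect was 0.44 ± 0.20 (SE), with adjusted p = 0.967, so a difference between tissues was not called. Over the 8 comparisons the Car1 difference was negative in 7, and only the acetazolamide mesoderm value at 12 h was positive. Under cadmium it was -0.05 or nearer to 0 in all 4 comparisons.

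Car2, the high-activity cytosolic enzyme of many tissues, varied more between arrays of one group. In acetazolamide mesoderm at 3 h it read 0.53, 0.54 and -0.45, against 0.05, -0.05 and 0 in oil mesoderm. The third treated array lay on the other side of the oil arrays from the first 2, and the difference was 0.21 ± 0.18 (SE; adjusted p = 0.843). In acetazolamide ectoderm at 3 h the values were -0.42, -0.32 and 0.18, against 0.07, -0.07 and 0 in oil ectoderm. Again the third array stood apart. In both tissues a shift in the oil array behind the third ratio would look the same.

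At 12 h, Car2 in acetazolamide ectoderm read -0.11, -0.41 and -0.44, against -0.13, 0.12 and 0 in oil ectoderm. In acetazolamide mesoderm it read -0.12, -0.42 and -0.11, against -0.01, 0.01 and 0. All 3 mesoderm arrays lay below the oil arrays, while 1 ectoderm array lay within their range. The differences were -0.32 ± 0.22 and -0.22 ± 0.19 (SE), with adjusted p = 0.687 and 1. The highest Car2 value of all arrays, 0.94, was the third cadmium ectoderm array at 12 h, whose companions read -0.24 and -0.33, against -0.08, 0.08 and 0 in PBS ectoderm. There the difference was 0.13 ± 0.26 (SE).

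Car3, a low-activity enzyme best known from muscle and fat, had the smallest adjusted p of the family. In cadmium mesoderm at 12 h it read 0.11, 0.28 and 0.92, against -0.02, 0.02 and 0 in PBS mesoderm. All treated arrays lay above all PBS arrays, and the third lay far above the other two. The difference was 0.44 ± 0.14 (SE; 95% interval 0.15 to 0.73), a fold of 1.36, with adjusted p = 0.114. Without the third cadmium array, or without the third PBS array, which share a block, it was 0.20 with adjusted p = 0.741, and without the first it was 0.56 with adjusted p = 0.0314, past the threshold. The alternatives tried gave adjusted p-values between 0.0314 and 0.873.

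The third cadmium mesoderm array at 12 h was also the highest of its group for several marker lists. It was the lowest for the mesoderm markers, which averaged -0.09, 0.07 and -0.11, against -0.10, 0.07 and 0 in PBS mesoderm. The muscle markers (22 of 23 listed genes measured, 0 called, median difference 0.02) averaged -0.05, -0.02 and 0.17, against -0.04, 0.04 and 0 in PBS mesoderm. The endothelial markers averaged 0.16, 0.12 and 0.47, against -0.06, 0.03 and 0, and 3 of 15 rose: Tie1 by 0.63, Eng by 0.58 and Vwf by 0.47. The red blood cell markers averaged -0.03, 0.01 and 0.31, against -0.08, 0.06 and 0. Of these, 2 of 18 rose, Alas2 by 0.53 and Nfe2 by 0.40, but the Nfe2 groups overlapped. Of all genes, 188 of 8252 (2.28%) were called in this comparison. The part of these lists in the Car3 value was not tested.

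Elsewhere Car3 was not uniform. In cadmium ectoderm at 12 h it read 0.01, 0.36 and 0.29, against 0.00, 0.00 and 0 in PBS ectoderm, all above, with a difference of 0.22 ± 0.28 (SE; adjusted p = 0.983). In acetazolamide ectoderm at 12 h it read -0.11, -0.61 and -0.41, against -0.01, 0.01 and 0 in oil ectoderm. Here all treated arrays lay below the oil arrays, and the difference was -0.38 ± 0.24 (SE; adjusted p = 0.674). In the same acetazolamide arrays the muscle markers averaged -0.25, -0.11 and -0.12, against 0.12, -0.16 and 0 in oil ectoderm. The endothelial markers averaged -0.24, -0.07 and -0.25, against 0.01, -0.05 and 0, and the macrophage markers -0.14, -0.09 and -0.15, against 0.02, -0.05 and 0. Both of these lists lay wholly below oil. They held 0 called genes, against 0% of all genes in this comparison, and their part in the Car3 value was not tested. The acetazolamide effect minus the cadmium effect in ectoderm at 12 h was -0.60 ± 0.36 (SE; adjusted p = 0.491), and in mesoderm at 12 h it was -0.44 ± 0.24 (SE; adjusted p = 1), so neither difference between agents was called.

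In the RefSeq gene order Car13, Car1, Car3 and Car2 stand next to each other on chromosome 3. Their values can be set side by side: in acetazolamide ectoderm at 12 h the differences were -0.33 for Car1, -0.38 for Car3 and -0.32 for Car2, none of them called. Outside this run, Car5a on chromosome 8 differed by -0.29 there and Car6 on chromosome 4 by -0.14. Car4, Car8, Car12 and Car14 had positive differences in the same comparison. In cadmium mesoderm at 12 h the differences were -0.05 for Car1, 0.44 for Car3 and -0.06 for Car2. Over the 24 treated arrays, as a description, Pearson's r was 0.022 between Car1 and Car2, 0.26 between Car1 and Car3 and 0.233 between Car2 and Car3. Between Car1 and Car5a it was 0.685. These arrays share denominators and cover both agents.

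**Figure D2:**
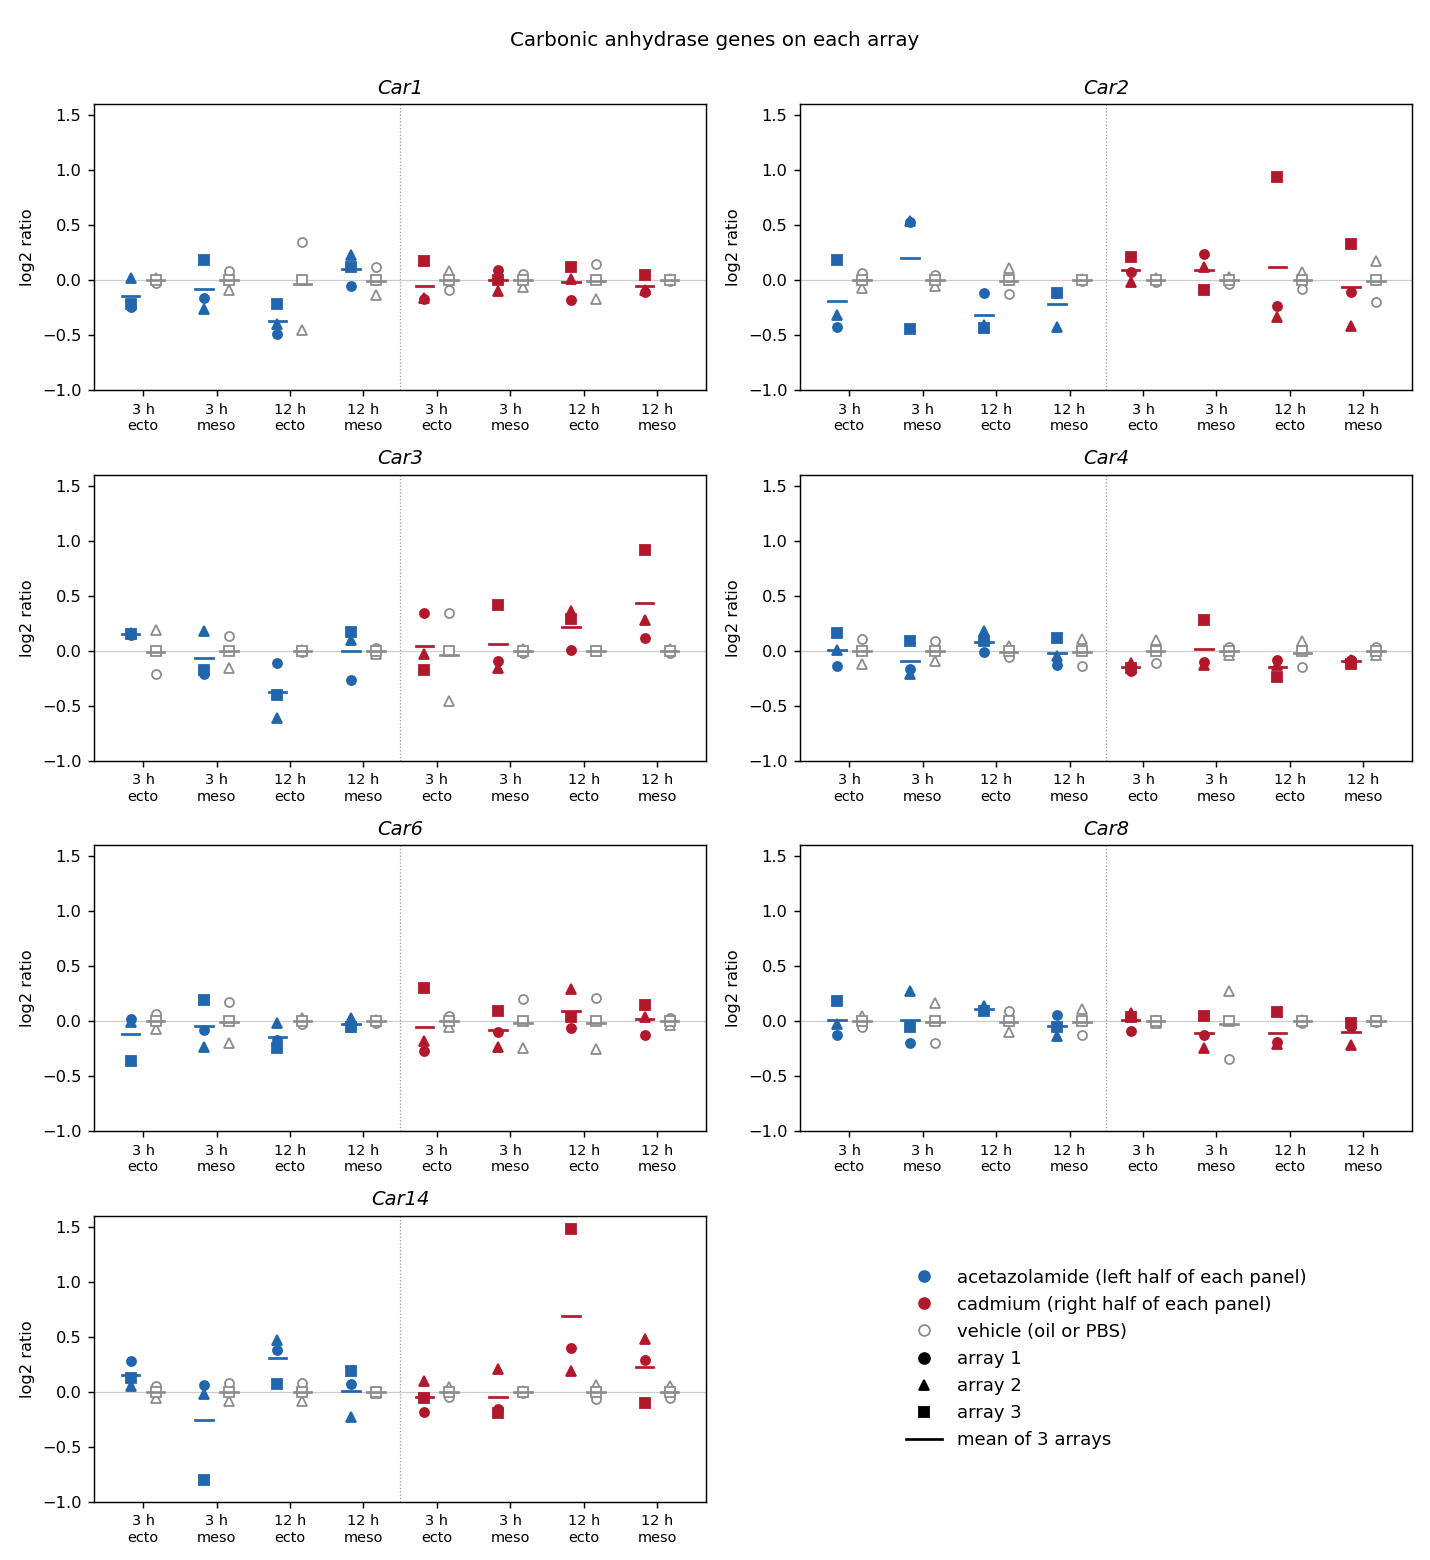
Log2 ratio of each of the 7 carbonic anhydrases in every array, in panels by gene, with treated arrays (blue for acetazolamide, red for cadmium) left of their vehicle arrays (grey, open) and a bar at each group mean. The third vehicle array is 0 by construction. The highest values, 1.48 for Car14 and 0.94 for Car2, both came from the third cadmium ectoderm array at 12 h. A shift in the PBS array behind this ratio would look the same.

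Of the membrane-bound and secreted enzymes, Car14 had the largest difference of the family. In cadmium ectoderm at 12 h it read 0.40, 0.19 and 1.48, against -0.07, 0.07 and 0 in PBS ectoderm. All treated arrays lay above the PBS arrays, and the third stood apart from the other two. The difference was 0.69 ± 0.23 (SE; 95% interval 0.21 to 1.17), a fold of 1.61, with adjusted p = 0.758. Without the third cadmium array, or without the third PBS array of the same block, the difference was 0.29, with adjusted p = 1. With 1 spread for all comparisons, in place of a weight for each, the adjusted p was 0.0445, which passes the threshold.

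On the scale of all genes, the third cadmium ectoderm array at 12 h had the widest spread of the treated arrays, with an SD of 0.543 over all genes, against 0.143 in the narrowest. Of all genes, 2.28% lay farther from 0 on it than Car14 did. The mesoderm markers (22 of 24 listed genes measured, 0 called) averaged 0.06, 0.02 and 0.21 in the cadmium ectoderm arrays, against 0.09, -0.12 and 0 in PBS ectoderm. The ectoderm markers (26 of 27 measured, 0 called) averaged 0.03, -0.29 and 0.16, against -0.03, 0.01 and 0. Of all genes, only 0.0242% were called in this comparison. The part of both lists in the Car14 value was not tested.

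In cadmium mesoderm at 12 h, Car14 read 0.29, 0.48 and -0.10, against -0.05, 0.05 and 0 in PBS mesoderm. The third treated array lay below all PBS arrays, and the difference was 0.22 ± 0.12 (SE; adjusted p = 0.421). At 3 h the cadmium differences of Car14 were both -0.05. The 12 h effect minus the 3 h effect in cadmium ectoderm was 0.74 ± 0.28 (SE), with adjusted p = 0.971.

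Under acetazolamide, Car14 read 0.38, 0.47 and 0.07 in ectoderm at 12 h, against 0.08, -0.09 and 0 in oil ectoderm. The groups just overlapped, and the difference was 0.31 ± 0.20 (SE; adjusted p = 0.683). In mesoderm at 3 h it read 0.06, -0.02 and -0.80, against 0.08, -0.08 and 0, with 1 array far below the others and a difference of -0.25 ± 0.16 (SE; adjusted p = 0.802). In ectoderm at 3 h all 3 acetazolamide arrays, at 0.28, 0.06 and 0.13, lay above the oil arrays, at 0.05, -0.05 and 0, with a difference of 0.16 ± 0.16 (SE).

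Car4, the enzyme anchored to the cell surface, had 2 probe sets, and the differences of their mean ran from -0.15 in cadmium ectoderm at 3 h to 0.09 in acetazolamide ectoderm at 12 h. The probe sets went against each other. Over the 24 treated arrays Pearson's r between them was -0.593, given as a description, while the median r over 1674 genes with 2 probe sets was 0.316. Only 3 of those genes, or 0.179%, Car4 included, had an r as low or lower. The probe table names a target mRNA for 103046_at and none for 161818_f_at, whose f suffix marks probes shared within a sequence family. Which of them follows Car4 was not tested, and the mean of both is uncertain. The Car4 groups without overlap, in cadmium ectoderm at 3 h and cadmium mesoderm at 12 h, rested on 161818_f_at. The arrays of 103046_at overlapped with PBS in both comparisons.

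In acetazolamide ectoderm at 12 h, probe set 161818_f_at read 0.39, 0.50 and 0.39, against -0.23, 0.20 and 0 in oil ectoderm. Probe set 103046_at read -0.41, -0.15 and -0.22 in the same acetazolamide arrays, against 0.11, -0.12 and 0. Both separated treated from oil arrays, in opposite directions, with differences of 0.44 ± 0.21 and -0.26 ± 0.13 (SE; adjusted p = 0.673 and 0.675 over all probe sets). In cadmium mesoderm at 12 h, 161818_f_at read -0.18, -0.35 and -0.53, against 0.05, -0.05 and 0 in PBS mesoderm, while 103046_at read 0.02, 0.19 and 0.29, against 0.03, -0.03 and 0. Here the differences were -0.36 ± 0.12 (adjusted p = 0.162) and 0.17 ± 0.08 (adjusted p = 0.338), and the signs of both probe sets were the reverse of those in acetazolamide ectoderm. Averaged over the 4 cadmium comparisons, 161818_f_at differed by -0.27 ± 0.08 (SE; adjusted p = 0.187) and 103046_at by 0.10 ± 0.05 (adjusted p = 0.585).

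**Figure D3:**
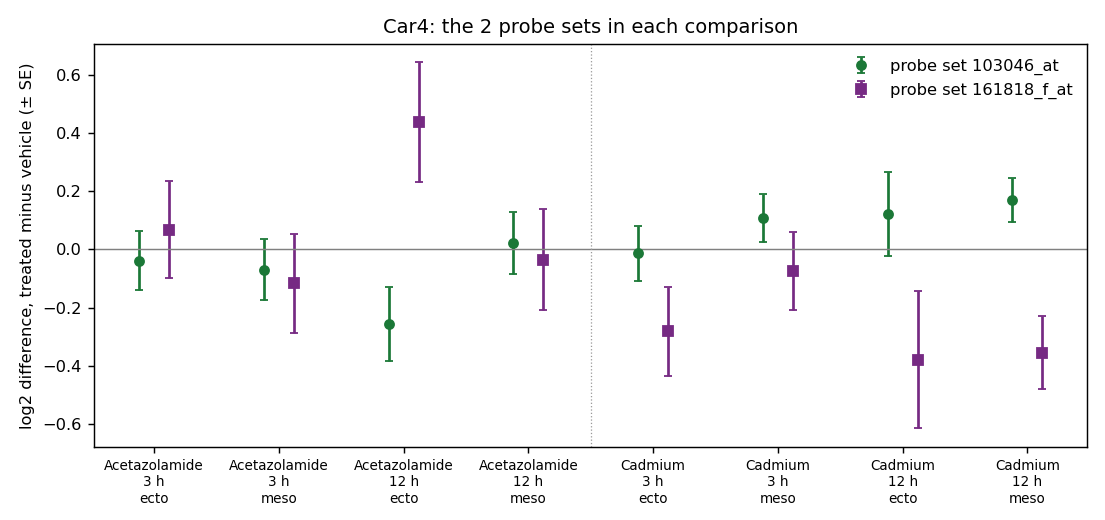
Log2 difference, treated minus vehicle, of the Car4 probe sets 103046_at (green circles) and 161818_f_at (purple squares) in each of the 8 comparisons, with bars of ± 1 SE (3 treated and 3 vehicle arrays each). In acetazolamide ectoderm at 12 h they lie at -0.26 and 0.44, and in cadmium mesoderm at 12 h at 0.17 and -0.36.

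Car6, the secreted enzyme of saliva and milk, ranged over its 8 differences from -0.14 in acetazolamide ectoderm at 12 h to 0.10 in cadmium ectoderm at 12 h. Its lowest single array was -0.36, the third acetazolamide ectoderm array at 3 h, and its highest was 0.30, the third cadmium ectoderm array at 3 h. Vehicle arrays reached from -0.25 to 0.21, so most treated arrays lay within the vehicle range. The Car6 adjusted p was 0.785 or higher in every comparison.

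Car8, the inactive relative, best known from Purkinje cells of the cerebellum, ranged from -0.10 in cadmium ectoderm at 12 h to 0.11 in acetazolamide ectoderm at 12 h. In that ectoderm at 12 h the acetazolamide arrays read 0.11, 0.14 and 0.09, against 0.09, -0.10 and 0 in oil ectoderm. All treated arrays lay above the oil arrays, but by less than the oil arrays differed among themselves, and the difference was 0.11 ± 0.17 (SE; adjusted p = 0.83). In cadmium mesoderm at 12 h Car8 read -0.05, -0.22 and -0.02, against 0.00, 0.00 and 0, all below, with a difference of -0.10 ± 0.10 (SE; adjusted p = 0.773).

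Outside the 7 members, Car12, a membrane enzyme like Car14, read 0.29, 0.07 and 0.60 in acetazolamide mesoderm at 3 h, against 0.06, -0.07 and 0 in oil mesoderm. All treated arrays lay above the oil arrays, and the difference was 0.32 ± 0.12 (SE; adjusted p = 0.522). In cadmium ectoderm at 3 h its difference was 0.27 ± 0.11 (SE; adjusted p = 0.999). Car5a, the mitochondrial enzyme, had its largest difference in acetazolamide ectoderm at 12 h, with -0.29 ± 0.16 (SE; adjusted p = 0.657). Neither was called in any of the 8 comparisons, nor in the mean over an agent's 4 comparisons. Without adjustment, the limma p of Car12 was 0.0098 and 0.0166 in the comparisons above. In the means it was 0.0422 for acetazolamide (0.13 ± 0.06, SE) and 0.0205 for cadmium (0.14 ± 0.06, SE). Of all genes, 14.1% and 10.6% were under 0.05 in these means.

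Pooling both tissues and both times, 12 treated against 12 vehicle arrays, narrowed the intervals. The model takes these arrays as independent, but ectoderm and mesoderm were split from limb buds and may share embryos or litters. The third vehicle array of each group, 0 by construction, adds no spread. The intervals of these means may therefore be too narrow. For acetazolamide, 0 of 7 members were called and 0 reached an unadjusted p under 0.05, against 0.739% and 14.1% of all genes. All 7 intervals held 0. Car2 had the lowest bound, with a mean difference of -0.13 ± 0.10 (SE; 95% interval -0.33 to 0.07), and Car14 the highest, with 0.06 ± 0.09 (95% interval -0.12 to 0.23). These bounds are folds of 0.797 and 1.18, and an interval that holds 0 does not show that a transcript was unaffected. The smallest adjusted p was 0.426, for Car1 (-0.11 ± 0.07).

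For cadmium, 0 of 7 members were called and 2 reached an unadjusted p under 0.05, against 0.57% and 10.6% of all genes. Car14 had a mean difference of 0.20 ± 0.08 (SE; adjusted p = 0.366), and Car3 of 0.20 ± 0.10 (SE; adjusted p = 0.466). Without the third cadmium ectoderm array at 12 h, or the third PBS array beside it, the Car14 value was 0.11, and without single arrays the Car3 value ran from 0.13, without the second PBS ectoderm array at 3 h, to 0.25. The lowest bound was -0.21, for Car8, and the highest 0.40, for Car3.

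The effects of the 2 agents were compared directly, at the same tissue and time. Effects in mesoderm and ectoderm and at 12 h and 3 h were compared too, with the tissues again taken as independent. These 13 differences of effects gave 0 of 91 calls for the 7 members and 2 at an unadjusted p under 0.05, against 0.096% and 5.2% of all genes. The 2 were the Car1 difference between tissues under acetazolamide and the Car14 difference between times under cadmium, given above. Averaged over tissues and times, the acetazolamide effect minus the cadmium effect was lowest for Car3, at -0.27 ± 0.14 (SE; adjusted p = 0.304), and highest for Car8, at 0.10 ± 0.10 (adjusted p = 0.599). All 7 intervals held 0 and lay between -0.56 and 0.30.

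Single arrays were left out for the 3 differences with the smallest p. For Car14 in cadmium ectoderm at 12 h the difference ran from 0.29 to 0.86, and for Car3 in cadmium mesoderm at 12 h from 0.20 to 0.56. For Car1 in acetazolamide ectoderm at 12 h it ran from -0.54 to -0.09. None of the 3 changed sign. The Car3 difference in acetazolamide ectoderm at 12 h, larger than that of Car1, ran from -0.52 to -0.24.

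**Figure D4:**
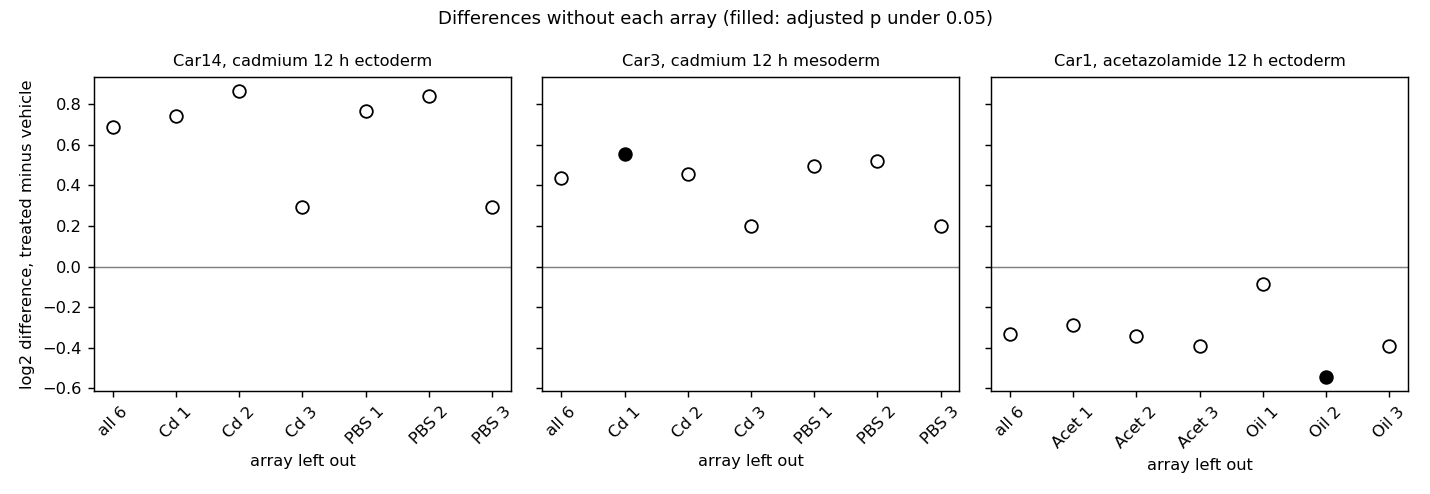
Log2 difference, treated minus vehicle, of the 3 member differences with an unadjusted p under 0.05, in the full data and without each array of the comparison in turn. Filled points have an adjusted p under 0.05, and these are Car3 without the first cadmium mesoderm array and Car1 without the second oil ectoderm array.

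The members were also compared over the 24 treated arrays, after each array was centred on its median. Pearson's r between pairs of members ran from -0.438 (Car2 and Car4) to 0.454 (Car1 and Car6), with a median of -0.10 over 21 pairs. These values describe arrays that share denominators and agents. Car14 had the largest SD over these arrays, 0.391, and 16.3% of all genes had a larger one. Car2 followed with 0.362, and Car6 had the smallest, 0.142, exceeded by 76% of genes.

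The genes whose pattern over the 24 treated arrays was most like that of Car2 were Ifi30, with Pearson's r = 0.841, Rnaseh2b, with 0.83, and Psmb2, with 0.827. Without the 2 arrays farthest from the Car2 median, r was 0.723, 0.773 and 0.712 over 22 arrays. For Car14 they were Twist1, a transcription factor of limb mesenchyme, with r = 0.858, Pmm1 with 0.831 and Ogfod2 with 0.826. Without the 2 farthest arrays the values were 0.631, 0.577 and 0.519. One of the arrays left out was in both cases the third cadmium ectoderm array at 12 h.

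Genes around the enzymes were read from lists. Of 46 listed carriers and pumps of bicarbonate, protons and lactate, 29 were measured, and 0 were called in the 8 comparisons, while 10 of 232 differences had an unadjusted p under 0.05, against 3925 of 66016 for all genes. The smallest p-values belonged to subunits of the vacuolar proton pump: Tcirg1 in cadmium mesoderm at 12 h (0.27 ± 0.08, adjusted p = 0.0979), Atp6v0b in the same comparison (0.57 ± 0.20, adjusted p = 0.136) and Atp6v1b2 in cadmium ectoderm at 12 h (-0.59 ± 0.21, adjusted p = 0.758). The median difference of the list ran from -0.06 to 0.04, against -0.04 to 0.03 for all genes. Of 20 listed zinc enzymes of other families, 19 were measured and 0 were called in 152 tests. Over all genes, 93 of 66016 differences rose and 102 fell. The 0 calls of lists this small therefore lie near the share of all genes.

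Cadmium mesoderm at 12 h was the comparison in which other lists held called genes. In that comparison 2.28% of all genes were called, in either direction. Of 11 measured metal response genes, 3 fell: the metal-binding metallothioneins Mt2 (log2 difference -2.86) and Mt1 (-0.76), and Gclc (-0.35), an enzyme of glutathione synthesis. The adjusted p of Mt2 was 6.71e-10. Of 25 measured hypoxia response genes, 2 rose, the glycolytic enzymes Pfkl by 0.83 (adjusted p = 0.0104) and Pfkp by 1.05 (adjusted p = 0.0405), and 21 of 25 differences were positive, against 4493 of 8252 for all genes. The mean of this list was 0.10, 0.02 and 0.48 in the cadmium mesoderm arrays, against 0.10, -0.12 and 0 in PBS mesoderm, so that 2 cadmium arrays lay within the PBS range and the third above it. Hif1a, a subunit of the hypoxia-inducible factor, had a difference of -0.66 ± 0.19 (SE; adjusted p = 0.0617), with all cadmium arrays below the PBS arrays. In the other 7 comparisons 0 genes of these lists were called, but only 0% to 0.0364% of all genes were called there. The macrophage markers (13 of 15 measured) had 0 calls in 104 tests over all 8 comparisons. For all genes, 93 of 66016 differences rose and 102 fell.

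A measure of RNA quality differed between acetazolamide and oil arrays. The 3′ probe set minus the 5′ probe set of the control transcripts, as a log2 difference between treated and oil arrays, was positive in 4 of 4 acetazolamide comparisons, from 0.23 to 0.52 for actin and from 0.41 to 0.59 for Gapdh. The Gapdh value in acetazolamide mesoderm at 12 h came from 1 array, with -0.19, 1.72 and -0.05, against an oil mean of 0.08. For actin in acetazolamide mesoderm at 3 h the arrays read 1.55, 1.10 and -0.03, against an oil mean of 0.35, with the third array below that mean. In the 4 cadmium comparisons it ran from -0.08 to 0.002 for actin and from -0.25 to 0.49 for Gapdh. The 0.49 was cadmium ectoderm at 12 h, where the arrays read -0.67, 1.80 and 0.44, against a PBS mean of 0.03. The part of this measure in the member values was not tested.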

How the data were processed

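RNA from mouse forelimb bud ectoderm and mesoderm was hybridised to 48 Affymetrix MG-U74Av2 arrays. The values deposited by the authors are ratios. Over the 12488 probe sets the sum of vehicle arrays 1 and 2 was 2, within 3e-07, and vehicle array 3 equalled 1, within 6e-08, so the ratios are relative to vehicle. The background correction and normalization behind them are not given in the sources used here.

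The log2 of each ratio was used. A single gene was named by 10855 probe sets, several genes by 396 and none by 1237. The first kind were averaged per gene, which gave 8252 genes, 2076 of them with more than 1 probe set.

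All 48 arrays were fitted with limma 3.58.1 in R 4.3.3: 16 means for the vehicle denominators (arrays 1 and 2 together, array 3 apart, as inferred from the vehicle values), 8 agent effects, 24 residual degrees of freedom, 1 precision weight per comparison, eBayes without a trend, and Benjamini-Hochberg adjustment over 8252 genes with a threshold of 0.05. The script was tested on simulated data. The number of arrays limits the precision. No level is known, so no filter on dim probe sets was possible.

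No label ties equal array numbers to a common source, and they were not taken as pairs: the difference between arrays 1 and 2 correlated between treated and vehicle arrays at -0.195 to 0.651, over 0.1 in 3 of 8 comparisons. Alternatives were no denominator block, no weights, an array-number block, median centring, own arrays only, arrays 1 and 2 only, single probe sets, and each array left out.

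All members were named. Of each list, called genes were named, otherwise at most the 3 with the smallest p, and for Car2 and the member with the largest SD the 3 genes with the highest r. Members and lists were chosen with earlier results of these data known. Promoters are from the RefSeq table.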

Additional observations from a re-analysis of the deposited data

How the results depend on the processing

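The count of called members stayed at 0 in the 8 comparisons, the 2 agent means and the differences of effects without the denominator block, with median centring, with arrays 1 and 2 only and with single probe sets. It also stayed at 0 in the 8 comparisons and the 2 agent means with own arrays only. Without weights it was 1 in cadmium ectoderm at 12 h (Car14, adjusted p = 0.0445). With the array number as a replicate block it was 1 in cadmium mesoderm at 12 h (Car3, adjusted p = 0.046), the comparison with the highest correlation of array numbers (0.651), and the block changed no other call. The array numbers are not known to pair samples. With 1 array left out, the count ran from 0 to 1 in cadmium mesoderm at 12 h (Car3, without the first cadmium array) and from 0 to 1 in acetazolamide ectoderm at 12 h (Car1, without the second oil array), and from 0 to 0 elsewhere. The cause was not tested. Signs of uncalled member values changed in 3 of 70 under median centring, 15 of 70 with arrays 1 and 2 only, 2 of 70 for single probe sets and 87 of 672 with 1 array left out. Signal over background is unknown, since no level was kept.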
